A study of Mus musculus with 10 samples.

Results

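The TGF-β and BMP pathway was examined in left ventricular RNA of control and HFD+mTAC mice as 42 genes, grouped as ligands (8), soluble ligand-binding proteins (2), latency proteins (4), receptors and co-receptors (11), Smads (8), regulators of Smads (5) and target genes (4). They were chosen from a list of 44 symbols by a TPM above 0 in at least 9 of the 10 mice. Fst, which encodes the activin-binding protein follistatin, was above 0 in 4 mice with at most 5.38 estimated counts, and Acvr2b, which encodes an activin receptor, in 2 mice with at most 10.9, so both were left out. All 42 members were among the 13296 genes tested, of 29564 listed.

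All 10 mice were wild-type C57BL6 males (C57BL/6J in the study's methods) that are labelled as treated with vehicle and received no drug. The dosing is described for HFD+mTAC mice, with DMSO and polyethylene glycol in water at 10 mL/kg each day over 6 to 9 weeks. The 5 HFD+mTAC mice were fed a high-fat diet (fat as 60% of kilocalories) and had a moderate transverse aortic constriction, a narrowing of the aorta that loads the left ventricle with pressure, at 11 weeks of age, with 16 weeks of induction. The 5 control mice had no operation and ate chow with fat as 10% of kilocalories, so diet and operation cannot be told apart in this comparison. Polyadenylated RNA of the whole ventricle was sequenced, and the mice are called here by the numbers of their labels, TT-583 to TT-587 for controls and TT-588 to TT-592 for HFD+mTAC mice, with values listed in that order. Estimated counts per mouse were 34.2 to 53.7 M in all and 12.7 to 21.1 M on the genes tested, and mitochondrially encoded genes took 43.8 to 50.9% in controls and 46.4 to 52.7% in HFD+mTAC mice.

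Ligands of this family bind pairs of type I and type II receptor kinases, which phosphorylate receptor-regulated Smads that enter the nucleus with Smad4. TGF-β is secreted in a latent form that latent TGF-β binding proteins (Ltbp) tether to the matrix, and it signals mainly through Smad2 and Smad3, as activins do, whereas BMPs signal mainly through Smad1, Smad5 and Smad9 and induce the Id genes. In the heart, TGF-β is best known for driving fibroblasts to make matrix, and BMP9 and BMP10 signaling through Acvrl1 and endoglin for maintaining blood vessels. In bulk tissue, fewer cells of a type and less RNA per cell cannot be told apart.

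No member differed between the groups at an adjusted p under 0.05 (edgeR's quasi-likelihood test, adjusted by Benjamini-Hochberg over all genes tested), which 8 of the 13296 genes (0.0602%) did. At an unadjusted p under 0.05, 6 of the 42 members (14.3%) differed, against 8.27% of all genes tested. These were Ltbp4, Smad6, Bmp4, Tgfbr3 and Tgfbr1, with higher means in HFD+mTAC mice (5 members, against 4.54% of all genes in this direction), and Bmp2, with a lower mean (1 member, against 3.72%). Ltbp4 was the only member whose groups did not overlap, as was so for 1.96% of all genes. Across the members, 28 (66.7%) had a positive and 14 a negative log2 fold change (HFD+mTAC over control), against 50.3% positive over all genes tested. With 1 mouse left out, 25 (without control mouse TT-585) to 33 (without control mouse TT-584) were positive. The median was 0.06 against 0.00 over all genes tested, and 32 of the 42 lay within 0.2 of 0. The median size of the change regardless of sign was 0.12 both for the members and for all genes.

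**Figure D1:**
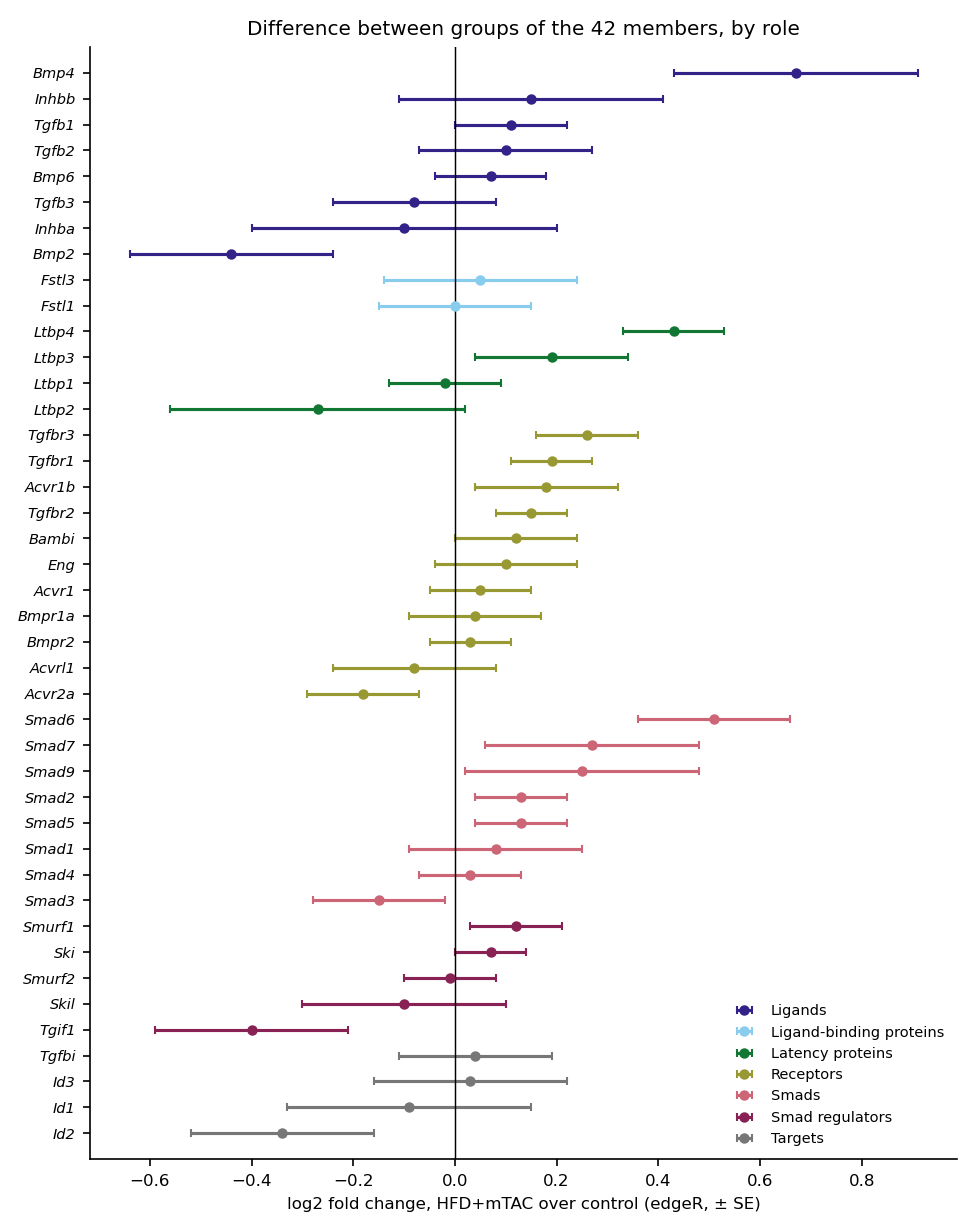
Log2 fold change (x axis, HFD+mTAC over control, ± SE from edgeR, 5 mice per group) of each of the 42 members (y axis), coloured by role. Most points lie within 0.2 of 0, with Bmp4 (0.67), Smad6 (0.51) and Ltbp4 (0.43) farthest to the right and Bmp2 (-0.44) and Tgif1 (-0.40) farthest to the left.

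The levels of the members spanned more than the groups differed. Levels are compared between genes as TPM, which divides counts by a gene's effective length, and the limits of the deposited lengths are given with Ltbp4. Ltbp4 had the highest mean level over the 10 mice (72.7 TPM, the 97.8th percentile of the genes tested), followed by Id1 (39.1 TPM), the TGF-β co-receptor endoglin (Eng, 30.7 TPM), Id3 (14.1 TPM) and Tgfb1 (8.99 TPM). At the other end were Inhba, which encodes the activin βA subunit (0.0303 TPM), the BMP-responsive Smad9 (0.0731 TPM), Ltbp2 (0.0946 TPM) and Bmp2 (0.106 TPM). The ranges over the mice of Id1 (21.1 to 54.1 TPM) and Eng (21.4 to 37.3 TPM) overlapped, as did those of Id1 and Ltbp4 (52.0 to 95.4 TPM), whereas Eng (lowest mouse 21.4 TPM) lay above Id3 (highest mouse 18.8 TPM) in every mouse. When CPM (counts scaled to a common library size) were instead divided by the longest annotated coding transcript, the highest 4 were the same genes, with Eng (112 CPM per kilobase) before Id1 (91.0 CPM per kilobase).

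**Figure D2:**
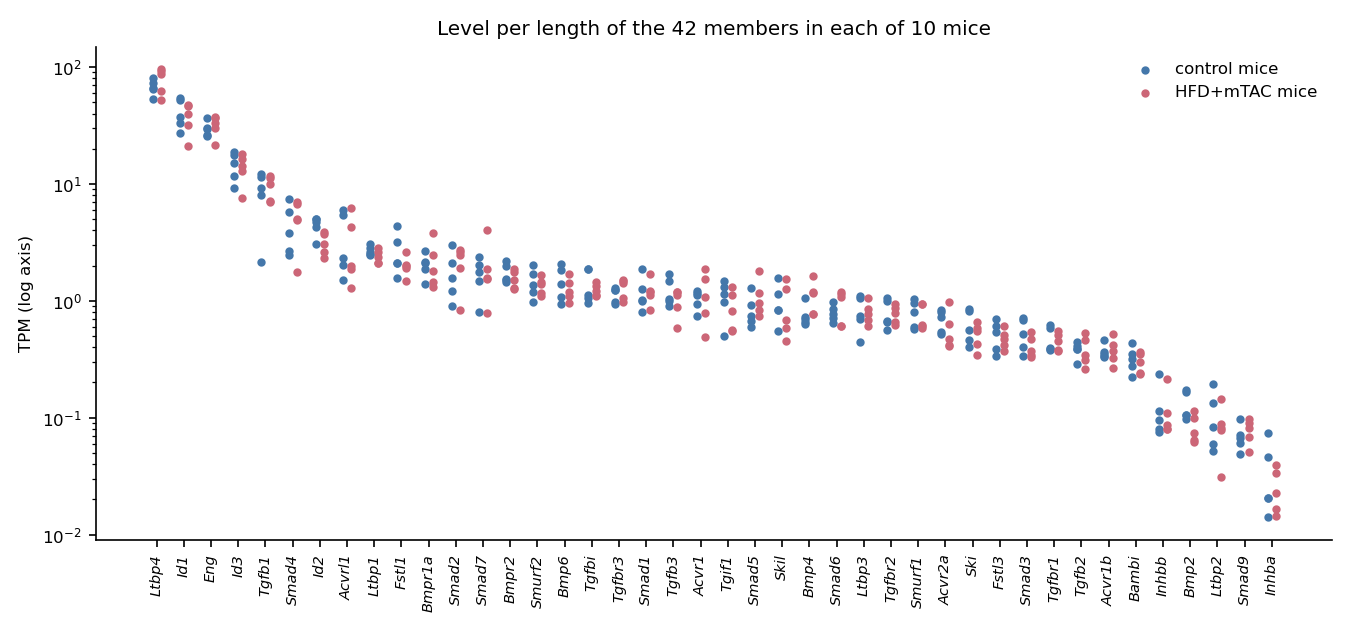
TPM (y axis, log scale) of the 42 members (x axis, ordered by mean) in each control and HFD+mTAC mouse, 1 point per mouse. Levels run from Ltbp4 at 52.0 to 95.4 TPM down to Inhba at 0.0140 to 0.0744 TPM, and points of both groups are mixed for nearly every gene.

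Among the ligands, Bmp4 had a higher and Bmp2 a lower mean in HFD+mTAC mice, both at low counts. CPM are after TMM normalization. Bmp4 (chromosome 14 of GRCm38, 46383520 to 46390669, minus strand) stood at 6.82, 7.30, 7.89, 7.68 and 13.1 CPM in controls and at 9.29, 11, 19.8, 16.3 and 11.5 CPM in HFD+mTAC mice. Control mouse TT-587 lay above 3 of the HFD+mTAC mice, and the other controls lay below all of them. The log2 fold change of Bmp4 was 0.67 ± 0.24 (SE), with an unadjusted p of 0.0146 and an adjusted p of 0.443 from edgeR. Bmp2 (chromosome 2, 133552159 to 133562885, plus strand) stood at 3.74, 3.73, 3.09, 3.31 and 3.07 CPM in controls and at 1.86, 2.36, 3.23, 2.32 and 2.76 CPM in HFD+mTAC mice. Only HFD+mTAC mouse TT-590 reached the range of the controls. The log2 fold change of Bmp2 was -0.44 ± 0.20 (SE), with an unadjusted p of 0.0467 and an adjusted p of 0.597 from edgeR.

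The 3 TGF-β ligands did not pass the test. Tgfb1, the isoform with the highest TPM, had 56.5 ± 3.95 CPM (SD, n = 5) in controls and 61.1 ± 10.5 CPM (SD, n = 5) in HFD+mTAC mice. HFD+mTAC mice TT-590 to TT-592 (68.7, 72.2 and 64.3 CPM) lay above every control (50.9 to 61.9 CPM), whereas TT-588 and TT-589 (52.1 and 48.1 CPM) lay in or below their range. The log2 fold change was 0.11 ± 0.11 (SE) for Tgfb1, 0.10 ± 0.17 for Tgfb2 and -0.08 ± 0.16 for Tgfb3 (adjusted p of 0.862, 0.926 and 0.939 from edgeR). Bmp6, an iron-regulating BMP also made by endothelium, had a log2 fold change of 0.07 ± 0.11 (SE), and the activin subunit genes Inhba and Inhbb had -0.10 ± 0.30 and 0.15 ± 0.26. The soluble ligand-binding proteins showed values near 0, with 114 CPM of Fstl1 in both groups. Fstl3, a secreted inhibitor of activins and myostatin, stood at 9.27, 8.35, 5.34, 9.37 and 7.94 CPM in controls and at 7.17, 6.47, 10.8, 8.67 and 8.53 CPM in HFD+mTAC mice. Its groups overlapped over most of their range, with a log2 fold change of 0.05 ± 0.19 (SE, adjusted p = 0.970 from edgeR).

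Among the latency proteins, Ltbp4, which tethers latent TGF-β and assists elastic fiber assembly, had the smallest p of all 42 members. Ltbp4 (chromosome 7, 27305136 to 27337692, minus strand) stood at 519, 559, 491, 489 and 557 CPM in control mice and at 633, 599, 775, 844 and 673 CPM in HFD+mTAC mice. The lowest HFD+mTAC mouse lay above the highest control, and the spread was wider in HFD+mTAC mice (coefficient of variation 14.5% against 6.52%). The fold was 1.35, with a log2 fold change of 0.43 ± 0.10 (SE), an unadjusted p of 0.00111 and an adjusted p of 0.246 from edgeR. DESeq2, which called 118 genes in all, gave Ltbp4 an adjusted p of 0.0139, the only member it called. The other latency proteins did not pass, with log2 fold changes of 0.19 ± 0.15 (SE) for Ltbp3, -0.02 ± 0.11 for Ltbp1 and -0.27 ± 0.29 for Ltbp2. Ltbp3 was lower in control mouse TT-587 (22 CPM) than in the other controls (36.4 to 38.8 CPM).

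The promoter windows of Ltbp4 are shown because it leads the list, with 250 bases before each of 2 RefSeq start sites (GRCm38.p6, minus strand, written 5′ to 3′, chr7:27337613-27337862 for the upstream and chr7:27333649-27333898 for the downstream start). Capitals mark GGCGCC, the core of a GC-rich element bound by BMP Smads. The other motifs searched on both strands were GTCTAGAC, a palindrome bound by Smad3 and Smad4, and CAGACA, an extended Smad-binding element.
Ltbp4 upstream start: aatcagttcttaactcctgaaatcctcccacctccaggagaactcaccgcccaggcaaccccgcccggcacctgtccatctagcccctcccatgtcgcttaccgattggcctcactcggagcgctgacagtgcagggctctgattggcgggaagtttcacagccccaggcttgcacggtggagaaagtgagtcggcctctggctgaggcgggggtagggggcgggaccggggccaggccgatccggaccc
Ltbp4 downstream start: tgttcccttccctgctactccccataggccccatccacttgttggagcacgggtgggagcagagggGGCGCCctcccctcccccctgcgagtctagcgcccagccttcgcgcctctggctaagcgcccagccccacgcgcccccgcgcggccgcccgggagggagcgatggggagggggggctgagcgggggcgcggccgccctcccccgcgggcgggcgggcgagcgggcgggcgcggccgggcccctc
The downstream window holds 1 GGCGCC, 184 bases before the start at its 5′ end, and the upstream window holds none of the motifs. Another RefSeq start lies 15 bases from the downstream one, and its window holds the same match. The GC content is 79.2% in the downstream and 64.4% in the upstream window.

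How Ltbp4 read depended on the scale, because the authors' files also give an effective length for each gene and mouse, by which counts are divided to make TPM. The effective length of Ltbp4 was 1245, 1233, 1350, 1055 and 1139 bases in controls and 1564, 1495, 1127, 1347 and 1211 bases in HFD+mTAC mice, far under its longest annotated coding transcript (5386 bases). In TPM the groups overlapped, with 72.5, 81.1, 53.5, 65.2 and 66.1 TPM in controls and 62.5, 52.0, 91.9, 86.6 and 95.4 TPM in HFD+mTAC mice. Mice TT-588 and TT-589, with the longest effective lengths, were above all controls in CPM and below most of them in TPM. With the lengths as an offset in edgeR, the log2 fold change of Ltbp4 was 0.32 ± 0.17 (SE, unadjusted p = 0.0905), and 0 of the 42 members had an unadjusted p under 0.05, against 990 of all genes (7.45%).

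The effective lengths cannot be read as transcript choice alone. In 33 of the 42 members the largest deposited length exceeded the longest transcript of the reference annotation, as for Ski, a repressor of Smads (61697 against 5522 bases). The 6 members with 1 annotated transcript, among which no choice of transcript exists in this annotation, varied by 1.15- to 1.33-fold between mice. Tgfb1 was the member with the widest variation (4.09-fold), since control mouse TT-585 had 3481 bases and the other 9 mice 852 to 1135 bases, and its TPM there was 2.15 against 7.05 to 12.1 in the others, although its CPM (50.9) was within the range of the mice. Acvrl1, the type I receptor for BMP9 and BMP10, had 2304 to 3225 bases in mice TT-583, TT-584, TT-591 and TT-592 and 5107 to 5915 bases in the other 6, with 4.25 to 6.16 TPM and 1.29 to 2.30 TPM. Each of these sets held mice of both groups. Of the 42 members, 5 (Fstl1, Tgfbr1, Inhbb, Inhba and Bambi) were longer in HFD+mTAC mice at an unadjusted p under 0.05, against 5.53% of all genes (limma on log2 length centred per mouse), and the smallest adjusted p was 0.593.

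**Figure D3:**
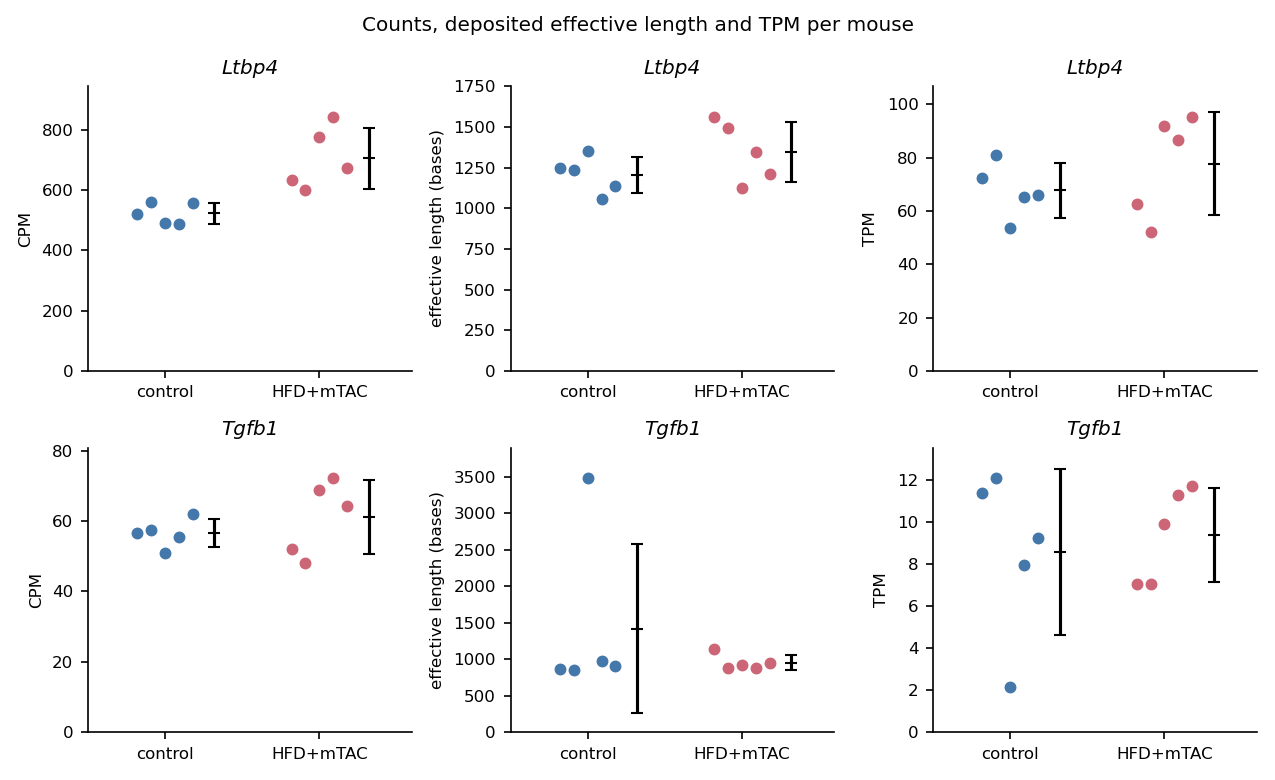
CPM, deposited effective length in bases and TPM (y axes) of Ltbp4 and Tgfb1 in each mouse by group, with mean and SD at the side. The 5 HFD+mTAC mice lie above the controls for Ltbp4 in CPM but not in TPM, and 1 control mouse stands apart for Tgfb1 in length (3481 bases) and TPM (2.15).

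Of the 11 receptors and co-receptors, 9 had a positive log2 fold change (81.8%, against 50.3% of all genes tested, median 0.10). Tgfbr3 and Tgfbr1 were the 2 with an unadjusted p under 0.05. Tgfbr3 (betaglycan, a co-receptor that presents TGF-β and binds inhibin, on chromosome 5, 107106570 to 107289629, minus strand) stood at 58.0, 53.9, 72.2, 70.0 and 65.3 CPM in controls and at 82.7, 84.7, 71.1, 70.0 and 73.7 CPM in HFD+mTAC mice. Mice TT-588 and TT-589 lay well above the controls, and TT-590 and TT-591 within their range. The log2 fold change was 0.26 ± 0.10 (SE), with an unadjusted p of 0.0206 and an adjusted p of 0.483 from edgeR. Tgfbr1, the type I receptor kinase for TGF-β (chromosome 4, 47353222 to 47414931, plus strand), stood at 26.2, 27.8, 24.1, 27.0 and 26.3 CPM in controls and at 31.7, 30.7, 26.5, 31.1 and 29.8 CPM in HFD+mTAC mice. All HFD+mTAC mice but TT-590 lay above the controls. The log2 fold change was 0.19 ± 0.08 (SE), with an unadjusted p of 0.0452 and an adjusted p of 0.597 from edgeR.

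The type II receptor Tgfbr2 had 96.5 ± 6.57 CPM (SD, n = 5) in controls and 107 ± 5.42 CPM (SD, n = 5) in HFD+mTAC mice, and its log2 fold change was 0.15 ± 0.07 (SE, unadjusted p = 0.0609, adjusted p = 0.626 from edgeR). It was above the control median in 5 of 5 HFD+mTAC mice. The BMP receptors Bmpr1a, Bmpr2 and Acvr1 had log2 fold changes of 0.04 ± 0.13, 0.03 ± 0.08 and 0.05 ± 0.10 (SE). The activin receptors Acvr1b and Acvr2a had 0.18 ± 0.14 and -0.18 ± 0.11, and Bambi, a pseudoreceptor without a kinase domain, had 0.12 ± 0.12. The endothelial receptors Acvrl1 (80.1 ± 14.0 against 75.9 ± 17.6 CPM, SD, n = 5 each) and Eng (370 ± 38.8 against 398 ± 87.1 CPM, SD, n = 5 each) varied more within the groups than between them. HFD+mTAC mice held both the lowest and the highest level of Eng, 289 CPM in mouse TT-589 and 528 CPM in mouse TT-591.

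Of the 8 Smads, 7 had a positive log2 fold change (87.5%, against 50.3% of all genes tested, median 0.13). Smad6, an inhibitory Smad that blocks mainly BMP signaling, was the only one with an unadjusted p under 0.05. Smad6 (chromosome 9, 63953076 to 64022059, minus strand) stood at 14.4, 12.0, 16.3, 13.7 and 17.7 CPM in controls and at 16.7, 19.8, 22.5, 27.3 and 19.4 CPM in HFD+mTAC mice. All HFD+mTAC mice but TT-588 lay above every control. The fold was 1.43, with a log2 fold change of 0.51 ± 0.15 (SE), an unadjusted p of 0.00423 and an adjusted p of 0.314 from edgeR. In TPM, mice TT-588 and TT-589 (0.605 and 0.604 TPM) lay below every control (0.641 to 0.971 TPM). With the lengths as an offset in edgeR, the log2 fold change of Smad6 was 0.35 ± 0.23 (SE, unadjusted p = 0.164). Its sister Smad7, which blocks both arms, had a log2 fold change of 0.27 ± 0.21 (SE, adjusted p = 0.791 from edgeR). HFD+mTAC mouse TT-591 had 68.2 CPM of Smad7, and the other 4 had 28.7 to 35.3 CPM, close to the 30.4 to 37.8 CPM of the controls.

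The receptor-regulated Smads differed less. Smad2 (28.8 ± 2.45 against 31.5 ± 1.52 CPM, SD, n = 5 each) and Smad3 (23.4 ± 3.70 against 21.1 ± 2.19 CPM, SD, n = 5 each), the TGF-β pair, had log2 fold changes of opposite sign, 0.13 ± 0.09 (SE) and -0.15 ± 0.13 (adjusted p of 0.769 and 0.813 from edgeR). Of the BMP Smads, Smad1 had 0.08 ± 0.17, Smad5 0.13 ± 0.09 and Smad9, the least abundant at 3.41 CPM in controls, 0.25 ± 0.23. The common partner Smad4 had 53.9 ± 5.57 CPM (SD, n = 5) in controls and 55.0 ± 5.37 CPM (SD, n = 5) in HFD+mTAC mice. No regulator of Smads passed either. Tgif1, a homeodomain corepressor of Smads, stood at 8.74, 8.67, 7.10, 8.39 and 11.2 CPM in controls and at 4.61, 6.17, 6.38, 9.01 and 7.06 CPM in HFD+mTAC mice. Only mouse TT-591 was above the control median (log2 fold change -0.40 ± 0.19, SE, unadjusted p = 0.0503, adjusted p = 0.603 from edgeR). The corepressors Ski and Skil had log2 fold changes of 0.07 ± 0.07 and -0.10 ± 0.20, and the ubiquitin ligases Smurf1 and Smurf2 of 0.12 ± 0.09 and -0.01 ± 0.09.

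**Figure D4:**
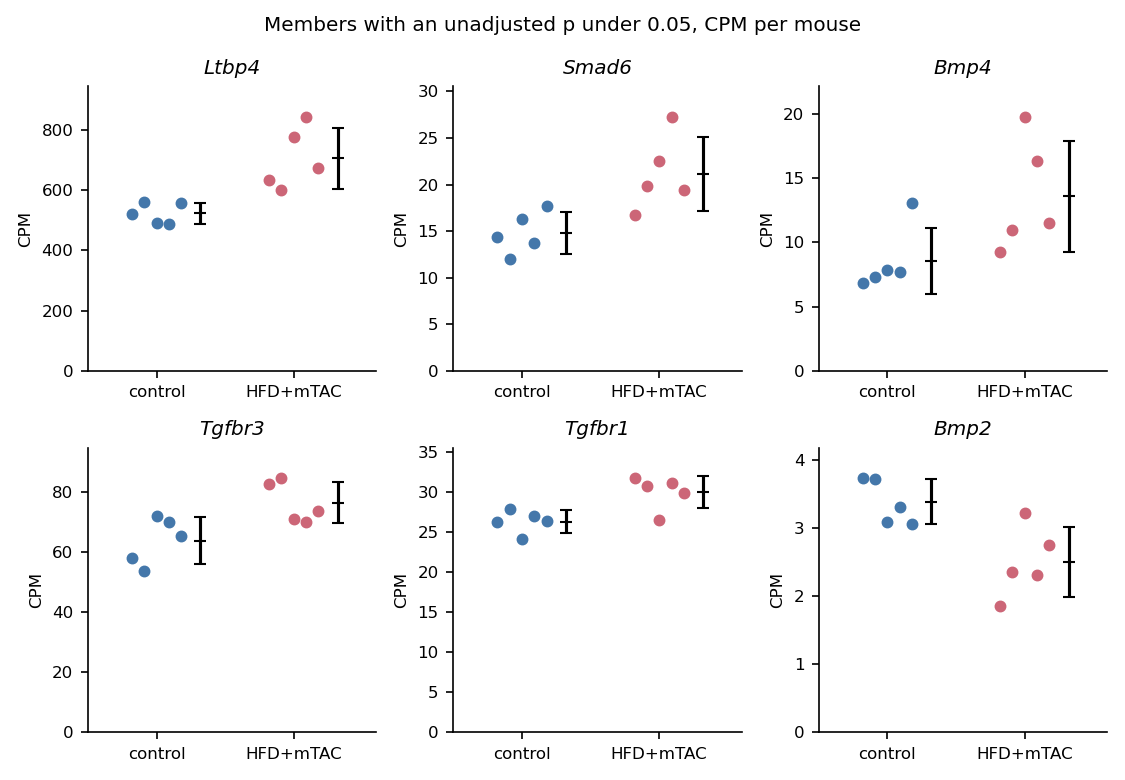
CPM (y axes) in each control and HFD+mTAC mouse, 1 point per mouse with mean and SD at the side, for the 6 members with an unadjusted p under 0.05. The groups are separate for Ltbp4 (489 to 559 against 599 to 844 CPM) and overlap by at least 1 mouse in the other 5.

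The 4 targets gave no difference that passed the test. Id1 had 109 ± 32.6 CPM (SD, n = 5) in controls and 102 ± 31.8 CPM (SD, n = 5) in HFD+mTAC mice, and Id3 had 68.9 ± 16.1 and 70.4 ± 18.2 CPM. Both encode inhibitors of basic helix-loop-helix factors and are classic BMP targets, and their differences, -0.09 ± 0.24 and 0.03 ± 0.19 (log2, SE), were well inside the spread of the mice. Id2 stood at 14.8, 13.2, 11.3, 14.4 and 20.2 CPM in controls and at 9.42, 10.5, 11.1, 16 and 11.2 CPM in HFD+mTAC mice. All HFD+mTAC mice but TT-591 lay below the lowest control, with a log2 fold change of -0.34 ± 0.18 (SE, unadjusted p = 0.0799, adjusted p = 0.666 from edgeR). Without control mouse TT-587 it was -0.20 ± 0.16 (SE, unadjusted p = 0.234 from edgeR), and without HFD+mTAC mouse TT-591 it was -0.48 ± 0.16 (SE, unadjusted p = 0.0125). Tgfbi, a TGF-β-induced matrix protein, had a log2 fold change of 0.04 ± 0.15 (SE).

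The windows of Id3, a BMP target, and of Smad6, itself a known target of BMP Smads, are shown for comparison with Ltbp4 (RefSeq, GRCm38.p6, 250 bases before the start, 5′ to 3′, chr4:136143572-136143821 on the plus strand and chr9:64022060-64022309 on the minus strand). The promoter reference used here held no window for Id1.
Id3: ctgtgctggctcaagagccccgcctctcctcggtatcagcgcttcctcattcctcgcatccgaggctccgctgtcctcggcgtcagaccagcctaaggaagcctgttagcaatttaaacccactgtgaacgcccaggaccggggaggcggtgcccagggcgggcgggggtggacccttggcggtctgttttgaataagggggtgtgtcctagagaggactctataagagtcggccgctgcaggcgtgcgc
Smad6: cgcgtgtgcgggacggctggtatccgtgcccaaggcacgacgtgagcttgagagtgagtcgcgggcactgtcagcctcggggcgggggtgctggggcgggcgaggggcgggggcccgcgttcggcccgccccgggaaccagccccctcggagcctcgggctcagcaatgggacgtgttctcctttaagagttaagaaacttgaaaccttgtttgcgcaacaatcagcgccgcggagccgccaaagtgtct
Neither holds any of the 3 motifs, so no letter is in capitals. Of 32851 such windows of all genes, 9.59% hold GGCGCC, 0.167% GTCTAGAC and 17.1% CAGACA. Among 42 windows of 32 members with an entry, 11 (26.2%) hold GGCGCC, none GTCTAGAC and 7 (16.7%) CAGACA. The median GC content was 65.4% in the members' windows and 52.4% in all windows, and its part in the share of GGCGCC was not tested.

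Shares of the summed TPM were computed within families. Tgfb1 made 81.4% ± 9.59 (SD, n = 5) of the summed TPM of the 3 TGF-β ligands in controls and 87.1% ± 2.10 (SD, n = 5) in HFD+mTAC mice, Ltbp4 94.9% ± 0.873 and 95.8% ± 1.00 of the 4 Ltbp genes, and Id1 68.1% ± 4.37 and 68.7% ± 1.07 of Id1 to Id3. Bmpr2 made 54.4% ± 2.30 and 53.6% ± 2.27 of the type II receptors, and Smad2 75.3% ± 8.28 and 82.0% ± 7.05 of Smad2 and Smad3. Of 23 shares, 1 had an unadjusted p under 0.05 in the two-sided exact permutation test (Tgfb3, 14.1% against 9.15%, p = 0.0317), whose smallest possible p is 0.00794. With 23 shares, this design could not bring a single share under an adjusted p of 0.05. The share of Tgfb3 was 27.1% in control mouse TT-585, where the TPM of Tgfb1 was low, and 9.31 to 11.9% in the other controls.

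Of 64 other genes of the pathway 51 were tested, of which 1 had an unadjusted p under 0.05 with a higher and 4 with a lower mean in HFD+mTAC mice, none with an adjusted p under 0.05 (edgeR, median log2 fold change 0.00), and nothing is read from these counts beside 8.27% of all genes. Bmp10, which encodes a BMP of the heart, was higher at the limit of detection (0.208 ± 0.133 against 0.582 ± 0.219 CPM, SD, n = 5 each). Lower means were found for Lrrc32, which encodes a receptor for latent TGF-β (111 ± 35.4 against 69.9 ± 28.1 CPM, SD, n = 5 each), for Hfe2, the BMP co-receptor hemojuvelin (347 ± 24.9 against 305 ± 11.3 CPM), for the corepressor Tgif2 (2.22 ± 0.499 against 1.41 ± 0.391 CPM), and for fibromodulin (Fmod, 2.06 ± 0.757 against 1.18 ± 0.512 CPM). Hfe2 was the only one of these whose groups did not overlap, with 328 to 390 CPM in controls and 289 to 318 CPM in HFD+mTAC mice (adjusted p = 0.509 from edgeR). Over all genes tested, 1.96% had groups without overlap. Twsg1, which encodes the BMP-binding protein twisted gastrulation, had 113 CPM in both groups.

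Among 19 genes known to respond to TGF-β, 10 had a positive and 9 a negative log2 fold change. In each direction 1 had an unadjusted p under 0.05, beside 4.54% (higher) and 3.72% (lower) of all genes, and nothing is read from these counts. The lower one was Bhlhe40, a transcriptional repressor, with 142 ± 33.9 CPM (SD, n = 5) in controls and 110 ± 16.4 CPM (SD, n = 5) in HFD+mTAC mice. Bhlhe40 had a log2 fold change of -0.37 ± 0.16 (SE, adjusted p = 0.542 from edgeR). The collagen genes Col1a1 (-0.04 ± 0.25), Col1a2 (0.05 ± 0.16) and Col3a1 (-0.26 ± 0.30) did not pass. Of 8 further BMP response genes 7 were tested, 3 with a positive and 4 with a negative log2 fold change, and none had an unadjusted p under 0.05. The smallest p among them was that of Tmem100, an endothelial gene downstream of Acvrl1 (33.1 ± 6.85 against 27.2 ± 2.08 CPM, SD, n = 5 each, log2 fold change -0.29, adjusted p = 0.603 from edgeR).

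Markers of the cells of the ventricle were set beside these results. The 6 cardiomyocyte markers (Myh6, Tnnt2, Tnni3, Actc1, Ryr2 and Pln) all had lower means in HFD+mTAC mice, although none passed the adjusted threshold. Their summed level was 42634 to 46802 CPM in controls and 35501 to 41840 CPM in HFD+mTAC mice, without overlap on this scale. Actc1, Tnnt2 and Tnni3 carried most of this sum (control means 15206, 13457 and 8424 CPM). In TPM the sums overlapped. HFD+mTAC mouse TT-592 had 3647, 5346 and 3061 TPM of these 3 genes, and control mouse TT-587 had 2403, 4103 and 3393 TPM. None of the 6 separated the groups on its own, and 2 HFD+mTAC mice lay above every control for Ryr2. The summed levels of 6 fibroblast markers (1559 to 1897 against 1624 to 2206 CPM), 6 endothelial markers (1544 to 1959 against 1570 to 2221 CPM), 5 mural markers (2209 to 2514 against 2054 to 2832 CPM) and 6 macrophage markers (146 to 213 against 157 to 208 CPM) overlapped between the groups. Mouse TT-590 had the highest sum of fibroblast markers and the highest Bmp4, and mouse TT-591 the highest sum of endothelial markers and the highest Ltbp4, Smad6, Smad7 and Eng. Mouse TT-591 also had the highest sum of mural markers (2832 CPM) and the lowest sum of cardiomyocyte markers (35501 CPM). Single markers were split between mice. Of the 6 fibroblast markers, Gsn and Lum were highest in TT-590, Pdgfra and Dpt in TT-591, and Dcn and Tcf21 in TT-587. Of the 6 endothelial markers, Kdr was highest in TT-583, Emcn in TT-587 and the others in TT-591. The part of these cell types in the levels of the members was not tested. Adipocyte markers (Adipoq, Plin1, Cfd and Cidec) had at most 28.0 counts in any mouse and were not tested, and the atrial markers Sln and Myl7 at most 21.0.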

How the data were processed

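Left ventricular RNA of 5 control and 5 HFD+mTAC mice was analyzed, grouped by the sample labels. According to the study's methods, reads of a stranded mRNA kit went through fastp and then salmon, with the GENCODE M25 transcriptome (GRCm38). The submitters' processing notes name Salmon 1.6.0 and, for the build, hg38, a human assembly. The labels give single-end and the methods paired-end reads.

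Per gene, the authors deposited expected counts from tximport, not normalized, of which 20.1% of values are not whole numbers. They also deposited TPM, which is scaled within each mouse and divided by length, and effective transcript lengths in bases, so that errors in length move TPM but not counts. Symbols were matched to GENCODE release M21 of GRCm38 (27812 directly, 863 by another symbol, 889 unmatched), and coordinates are from it. Among the members described mouse by mouse, Tgfbr3 overlaps other gene models on its strand, and Bmp4 and Fstl3 on the opposite strand, so some of their reads could belong to these.

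Tests covered nuclear protein-coding genes with 1 count or more in 9 of 10 mice. Rounded counts were normalized with TMM (factors 0.969 to 1.04) and tested with edgeR 4.0.16 in R 4.3.3 (quasi-likelihood, common dispersion 0.0422, adjusted p under 0.05) without covariates, since the labels give no batch or pairing. Libraries of a group differed by more than sampling noise (chi-square per degree of freedom at least 20.0). With 5 mice per group, differences that are small beside the spread of the mice could be missed. Lengths were tested with limma 3.58.1 and shares with exact permutation tests over 252 arrangements in Python 3.11.15. Statistics were tested on simulated data.

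Per-mouse values are given for members with an unadjusted p under 0.05 or groups without overlap and, in role groups with none, for the member with the smallest p. Of other pathway and response genes, those with an unadjusted p under 0.05 (at most 6) and 1 other are named with full values, and genes named beyond these (the collagens and the ranges of single mice) were chosen after their values were seen. A gene that this rule selects is not reported here. Members, roles and lists were chosen with earlier results of these data known. Alternatives were size factors of DESeq2, the test of DESeq2 1.42.0, upper-quartile normalization, limma on log2(TPM + 1) and log2(TPM + 0.1), other filters, all biotypes, lengths as offset, a robust fit and the omission of each mouse. Levels per kilobase of the longest coding transcript were added after the lengths were seen.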

Additional observations from a re-analysis of the deposited data

Results flagged for a closer look

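Of 84 sets of 5 mice (42 members in 2 groups), 6 held a mouse far from the other 4 in CPM by Dixon's criterion, which chance alone gives in about 1 of 20 sets. Control mouse TT-587 was such a mouse 3 times, with Bmp4 at 13.1 CPM (others 6.82 to 7.89), Acvr2a at 51.0 CPM (others 38.5 to 42) and Ltbp3 at 22 CPM (others 36.4 to 38.8). HFD+mTAC mouse TT-591 was such a mouse 2 times, with Smad7 at 68.2 CPM (others 28.7 to 35.3) and Id2 at 16 CPM (others 9.42 to 11.2). Control mouse TT-584 had Inhbb at 9.67 CPM (others 4.44 to 5.58).

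Without control mouse TT-587, the log2 fold change of Bmp4 was 0.87 (unadjusted p = 0.00172 from edgeR), and without HFD+mTAC mouse TT-590 it was 0.49 (unadjusted p = 0.0462). Without HFD+mTAC mouse TT-591, Id2 and Tgif1 joined the members with an unadjusted p under 0.05, while Bmp2 and Tgfbr1 left them and the number of such members stayed at 6.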

How the results depend on the processing

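No member had an adjusted p under 0.05 in any of the 20 alternatives but DESeq2, where 1 (Ltbp4) did. The number of members with an unadjusted p under 0.05, 6 in the reported fit, was 2 with limma on log2(TPM + 1) and on log2(TPM + 0.1) (Bmp2 and Bmp4, where 892 of all genes passed), 0 with lengths as offset, 5 to 8 under the other settings and 3 to 7 with 1 mouse left out, the lowest without HFD+mTAC mouse TT-589, where Bmp4, Ltbp4 and Smad6 kept it. With 1 mouse left out, 6.35 to 9.09% of all genes had an unadjusted p under 0.05. Ltbp4 and Smad6 each had an unadjusted p under 0.05 in 17 of the 20 alternatives, Bmp4 in 19, Tgfbr3 in 13, Tgfbr1 in 9 and Bmp2 in 8, and none of these 6 changed sign. Fstl3 (-0.07 to 0.12 with 1 mouse left out) reversed, at -0.07 without control mouse TT-585 and -0.06 without HFD+mTAC mouse TT-590. Other members also changed sign, among them Fstl1 and Smurf2 in 6 of the 20 alternatives, and Ltbp1, Bmpr2, Id1 and Id3 in 4. The most in a single alternative were 7 members, without HFD+mTAC mouse TT-589. The number of members whose groups did not overlap, 1 as reported, was 0 in TPM and 0 with lengths as offset, and 1 to 4 with 1 mouse left out (2 without TT-583 or TT-588, 3 without TT-590, 4 without TT-587 or TT-591). Fewer mice make a lack of overlap easier for every gene. The share of all genes is not given for these omissions, so nothing is read from these counts. The median log2 fold change stayed between 0.02 and 0.10. The number of members longer or shorter at an unadjusted p under 0.05, 5 as reported, was 1 without centring of lengths and 1 to 11 with 1 mouse left out (11 without TT-586, 3 without TT-592, 1 without TT-583, TT-584, TT-585, TT-587, TT-588 or TT-589), so 1 mouse was enough to move these counts. For lengths, too, the share of all genes is not given for these alternatives. No length passed adjustment in any alternative, the shares could not pass one by one in this design, and the 4 highest members were the same per kilobase of transcript. No paired analysis was possible because the groups share no replicate numbers.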

Other observations

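Some members varied together across the 10 mice, in pairs chosen after the values were seen. Log2 CPM of Id1 and Id3 correlated with Pearson's r = 0.93 (permutation p = 0.00013, adjusted over 12 relations 0.00156) and Spearman's rho = 0.89 (p = 0.0013, adjusted 0.0154), with r = 0.86 without the 2 mice farthest from the median of Id1. Eng and Acvrl1, which encode a co-receptor and receptor of endothelium, correlated with r = 0.87 (permutation p = 0.00073, adjusted 0.003) and rho = 0.87 (p = 0.00256, adjusted 0.0154), with r = 0.74 without the 2 mice farthest from the median of Eng. The summed level of 6 endothelial markers correlated with Acvrl1 at r = 0.88 (permutation p = 0.00075, adjusted 0.003) and rho = 0.83 (p = 0.00462, adjusted 0.0185), with r = 0.80 without the 2 farthest mice. With Ltbp4 the same sum gave r = 0.61 (permutation p = 0.06, adjusted 0.0655) and rho = 0.50 (p = 0.143, adjusted 0.158), and r = 0.15 over the other 8 mice once the 2 farthest (TT-586 and TT-591) were left out. With Smad6 it gave r = 0.43 (permutation p = 0.212, adjusted 0.212) and rho = 0.27 (p = 0.449, adjusted 0.449), and r = -0.23 without these 2 mice. The summed level of 6 fibroblast markers correlated with Ltbp4 at r = 0.69 (permutation p = 0.0275, adjusted 0.0467) and rho = 0.54 (p = 0.113, adjusted 0.151), with r = 0.45 without the 2 farthest mice (TT-585 and TT-590). With Bmp4 this sum gave r = 0.68 (permutation p = 0.0294, adjusted 0.0467) and rho = 0.58 (p = 0.0896, adjusted 0.134), with r = 0.36 without the same 2 mice. Within controls alone r of the fibroblast sum was 0.17 with Ltbp4 and 0.18 with Bmp4, and within HFD+mTAC mice 0.80 and 0.81. For the endothelial sum r was 0.73 with Ltbp4 and -0.09 with Smad6 within controls, and 0.97 and 0.86 within HFD+mTAC mice. With Ltbp4, r was thus higher for the endothelial than for the fibroblast sum within each group, but lower over all mice. The difference between the sums was not tested. All of these values share libraries and their normalization. The values over all mice and their permutation tests pool both groups, so differences between the groups enter them.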
